A study of Mus musculus with 2 samples.

Results

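The miRNAs described are miR-23a, miR-23b, miR-27a, miR-27b and miR-24, which are cut from the primary transcripts of a pair of related gene clusters. They were chosen by name among the miRNA probes of a rat code set, where they are called rno-miR-23a, rno-miR-23b, rno-miR-27a, rno-miR-27b and rno-miR-24, as the main strand of each hairpin. They make up 5 of 420 probes. Of the 5, 4 were above background in both samples, among 139 such probes, and miR-23b was above background in neither. The samples were extracellular vesicles (EVs), membrane particles shed into the medium, from cultured primary astrocytes, the supporting glial cells of the brain. The cells came from the cortex of mice at postnatal day 1 that carry enhanced green fluorescent protein under the GFAP promoter, labelled GFAP-EGFP. The growth protocol in the labels also names C57B6J mice. Per the labels' protocols, the cultures were 98% GFAP+, were used between passages 3 and 10, and filled 8 to 10 flasks per preparation. These were washed and given medium free of vesicles. The protocol text describes the IL-1β collection only, and is the same for both samples. In the first group, IL-1β, an inflammatory cytokine, was given at 200 ng per ml and the medium was taken after 2 h. In the second group, labelled as a 24 h control with no treatment, all particles released over 24 h were collected. Treatment and collection time therefore cannot be told apart. With 1 sample a group there is no replicate check and no test, and every interval covers counting error only.

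A miRNA is a short RNA that binds messenger RNAs through its seed, bases 2 to 8, and lowers their stability and translation. One primary transcript can carry several hairpins, each of which is cut out and trimmed to a mature miRNA by the same enzymes. The miR-23a cluster holds miR-23a, miR-27a and a copy of miR-24, and the miR-23b cluster holds miR-23b, miR-27b and another copy of miR-24. In mouse brain, miR-23a and miR-27a are known to restrain genes that promote neuronal death. In mouse oligodendrocytes, miR-23a represses lamin B1, a nuclear protein that limits myelin formation. In mice, miR-23b is known to dampen NF-κB signalling, the pathway that IL-1β switches on. The miR-27 pair represses nuclear receptors and transporters of lipid metabolism, and miR-24 is known in mouse cells to repress the death factor Bim.

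The mature sequences are shown because they set out which members share a seed. They are those of mouse in RefSeq (build GRCm38.p6), matched by name for 4 of the 5 members. The seed is in capitals.
miR-23a: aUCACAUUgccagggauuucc
miR-27a: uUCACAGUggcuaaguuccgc
miR-27b: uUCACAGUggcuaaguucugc
miR-24: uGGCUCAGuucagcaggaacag
miR-27a and miR-27b share their seed and are identical at 20 of 21 bases, with C19U from miR-27a to miR-27b, counted from 1 at the 5′ end. The seeds of miR-23a and miR-27a share 6 of 7 positions, and the miR-24 seed shares 0 of 7 with either. The assay used a code set designed for rat, whose probe sequences were not used here. How far each miR-27 probe also reads the other miR-27 was not tested.

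Both copies of the miR-24 hairpin, one in each cluster, hold the same mature miR-24, shown here in capitals. The miR-24 probe therefore counts the product of both clusters, while miR-23a, miR-27a, miR-23b and miR-27b each belong to 1 cluster.
Mir24-2, in the miR-23a cluster: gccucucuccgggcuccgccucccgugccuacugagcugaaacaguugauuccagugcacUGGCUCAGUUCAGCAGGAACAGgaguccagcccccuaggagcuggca
Mir24-1, in the miR-23b cluster: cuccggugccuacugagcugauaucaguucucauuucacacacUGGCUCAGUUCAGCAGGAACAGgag
In GRCm38.p6 the miR-23a cluster lies on the plus strand at chr8:84208518-84208921, a span of 404 bases. The annotation places no protein-coding gene across it, and the nearest is Zswim4 at chr8:84210942-84237042. The miR-23b cluster lies on the plus strand at chr13:63300484-63301275, a span of 792 bases within the bounds of the protein-coding gene Aopep (chr13:62964893-63326096). The annotation used here gives gene bounds only, so exon and intron were not assigned.

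**Figure D1:**
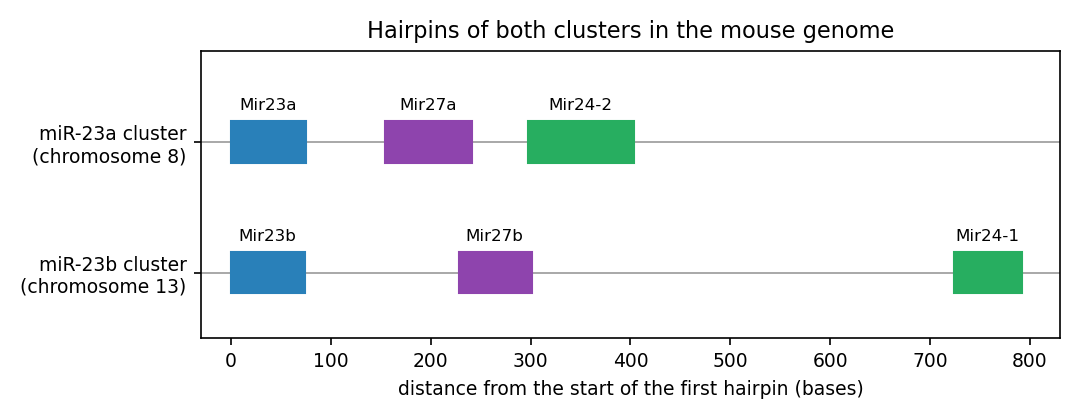
Hairpins of the miR-23a cluster (upper line) and the miR-23b cluster (lower line), as distance in bases from the start of the first hairpin, drawn to scale and coloured by family. The order 23, 27, 24 is the same in both, and the span is 404 bases in the miR-23a cluster and 792 bases in the miR-23b cluster.

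Counts came from NanoString nCounter, which joins each small RNA to a tag, hybridises it to a colour-coded reporter and counts reporters without amplification. The miRNA probes summed to 13514 counts with IL-1β and 16812 in the control, with a median of 5 counts per probe in both. The background threshold was set in each sample at 2 SD over the mean of 8 negative controls, which gave 9.67 counts for IL-1β EVs and 6.41 for control EVs. By this rule 146 of 420 probes passed with IL-1β and 185 in the control. Of the 71 probes with no mouse miRNA gene of their number, 40 passed in both samples. Passing therefore does not by itself show that the named miRNA is present. Of lists of miRNAs known from cell types, that for cultured astrocytes holds 5 miRNAs expressed in these cells but not exclusive to them. All 5 were above background in both samples (15.8% of all miRNA counts with IL-1β and 19.2% in the control). The lists were chosen with earlier results of these data known, so this does not show how pure the cultures were. The mural and fibroblast list had 4 of 5 above background in both (6.24% and 8.71%). Few members of the other lists passed. For neurons this was 1 of 5 probes with IL-1β and 2 in the control, for microglia and leukocytes 1 and 2 of 4, and for oligodendrocytes 0 and 1 of 2. For erythroid cells it was 0 of 2 in both, and for endothelium and hepatocytes 0 and 1 of 1 each. The summed share of a list among these was at most 0.200% with IL-1β and 0.178% in the control. In control EVs miR-150 was at 0, and in IL-1β EVs the neuronal miR-137 was at 0.

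In control EVs the miR-27a and miR-23a probes stood side by side, and miR-24 and miR-27b were lower. The miR-27a count was 349 (exact Poisson 95% interval 313 to 388), rank 11 of the 420 probes. The miR-23a count was 336 (301 to 374), rank 12. These intervals overlap, so the order of miR-27a and miR-23a was not resolved. miR-24 had 210 counts (183 to 240), rank 16, and miR-27b had 124 (103 to 148), rank 30. The miR-23b probe had 1 count, below background.

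In IL-1β EVs the order was different, with miR-24 first. The miR-24 count was 262 (231 to 296), rank 10. miR-23a had 150 counts (127 to 176), rank 21, and miR-27a had 144 (121 to 170), rank 22, again with overlapping intervals. miR-27b had 40 counts (28.6 to 54.5), rank 66. The miR-23b probe had 2 counts, below background. Probes differ in how well they are ligated and hybridised, so counts of different probes do not give their molar order.

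The miR-23b reading cannot show how well the code set separates close relatives. The miR-23a probe had 150 and 336 counts where the miR-23b probe had 2 and 1. A poor probe and a scarce miRNA cannot be told apart here. Its cluster partner miR-27b was above background in both samples, at 40 counts with IL-1β and 124 in the control.

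**Figure D2:**
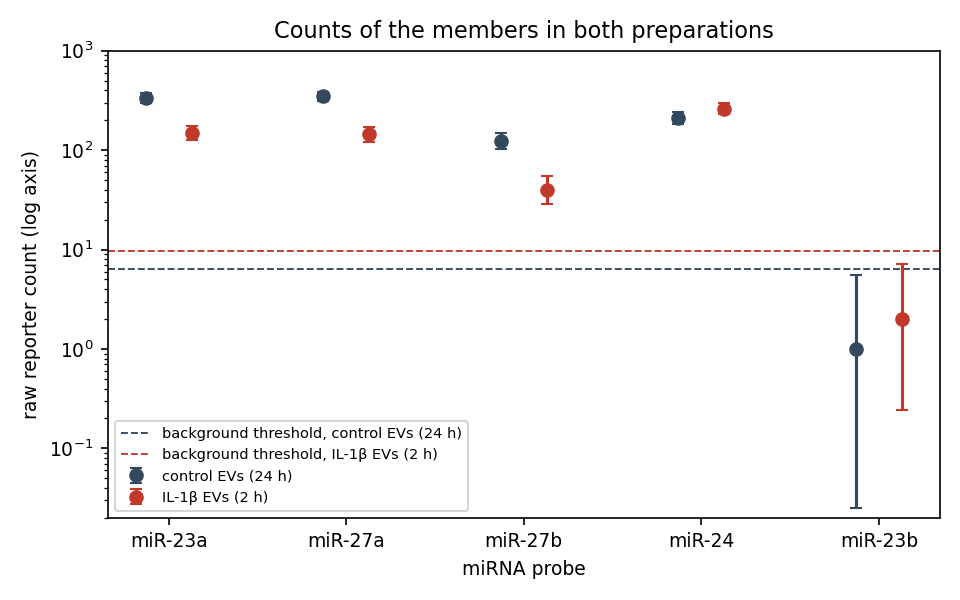
Raw reporter counts (log axis) of the 5 probes in control EVs (dark) and IL-1β EVs (red), 1 sample each, with exact Poisson 95% intervals and dashed lines at the background thresholds of 6.41 counts (control) and 9.67 counts (IL-1β). The miR-23a, miR-27a and miR-27b points are lower in IL-1β EVs with intervals that do not overlap, the miR-24 intervals overlap, and the miR-23b counts lie below both lines.

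Together the 5 probes made up 6.07% of all miRNA counts in control EVs (exact binomial 95% interval 5.71 to 6.44) and 4.43% with IL-1β (4.08 to 4.79). Within this sum of raw counts the make-up shifted towards miR-24. Its part was 20.6% (18.1 to 23.2) of the 1020 member counts in control EVs and 43.8% (39.8 to 47.9) of the 598 in IL-1β EVs. The part of miR-23a was 32.9% in control EVs and 25.1% in IL-1β EVs, that of miR-27a was 34.2% and 24.1%, and that of miR-27b was 12.2% and 6.69%. In the authors' deposited signals the make-up was another, with miR-24 at 6.0% of the members' sum in the control and 7.23% with IL-1β.

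To compare the samples, each was divided by its geometric mean over the 100 most counted miRNA probes, a factor of 0.875 for IL-1β over control. These include probes with no mouse miRNA gene of their number, such as miR-3583-3p with 270 counts with IL-1β and 238 in the control. Over the probes of that kind above background in both samples, the factor was 1.12. Both members of the miR-27 family were at least 2-fold lower in IL-1β EVs, miR-23a was just short of 2-fold lower, and miR-24 was higher by less than 2-fold, a direction that turned (log2 ratio -0.19) with scaling on the positive controls. That scaling lowered every log2 ratio by 0.70. Summed by family, miR-27 counts went from 473 in control EVs to 184 in IL-1β EVs, which was 2.25-fold lower (1.89 to 2.68). miR-23 counts went from 337 to 152, which was 1.94-fold lower (1.60 to 2.37). The scaled ratio of miR-24 was 1.43 (1.18 to 1.72). Fewer vesicles that carry a miRNA and less of it per vesicle cannot be told apart in such preparations.

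By the rule of at least 2-fold with an interval that excludes 1, 2 members (miR-27a and miR-27b) were called lower and 0 higher. miR-27b was 2.71-fold lower (1.89 to 3.98) and miR-27a 2.12-fold lower (1.74 to 2.59). miR-23a, at 1.96-fold lower (1.61 to 2.39), lay just outside the rule, and its interval overlaps those of both miR-27 members. Over all 160 probes with a ratio or a bound, 9.38% were called lower and 5.62% higher. Among the 47 probes with a summed count at least that of miR-27b (164), the 4 members included, 9 were called lower, with miR-27a and miR-27b among them. The median log2 ratio of the 4 members with a value was -1.03, against 0.27 over the 139 probes above background in both samples. In the order of those 139 ratios from the lowest, miR-27b was at position 7, miR-27a at 12, miR-23a at 13 and miR-24 at 101. The miR-27a call ended with scaling on the total miRNA count or on the 50 highest probes, and neither call held in the authors' deposited signals. In 6 of the 13 alternatives run, among them no scaling and scaling on the median ratio, miR-23a was called lower too, which made 3 members.

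**Figure D3:**
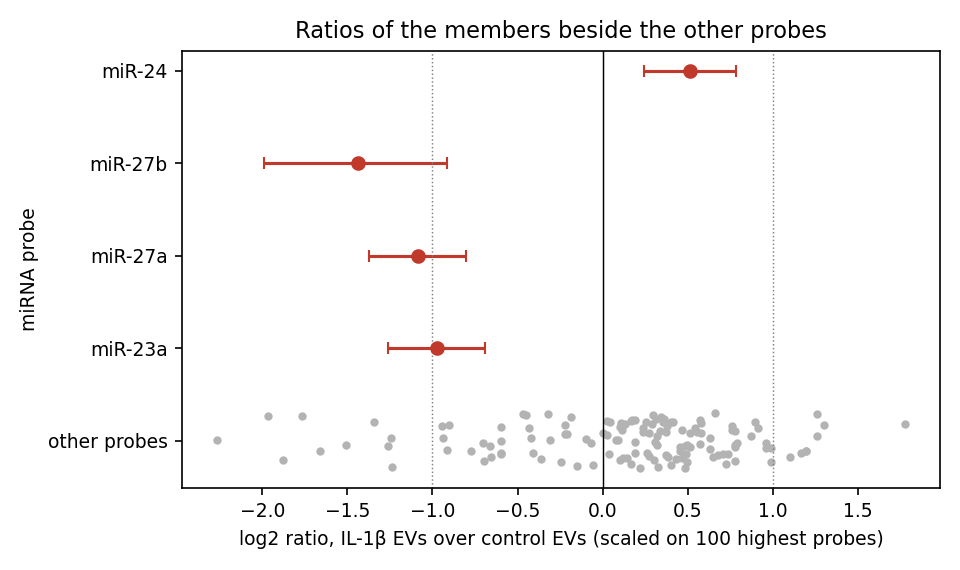
Log2 ratio of IL-1β EVs over control EVs on scaled counts for the 4 members with a value (red, exact binomial 95% intervals) and, in grey, for the other probes above background in both samples, spread vertically at random. Dotted lines mark 2-fold. The miR-27b, miR-27a and miR-23a points lie near the lower dotted line, and miR-24 lies above 0, where scaling on the positive controls puts it at -0.19.

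The ratio of 2 members' ratios needs no scaling, and the efficiency of each probe cancels in it as far as it is the same in both samples. By this measure miR-24 stood apart from miR-23a, miR-27a and miR-27b, while miR-27a was not separated from miR-23a or miR-27b beyond counting error. This holds for the raw counts: in the authors' deposited signals 0 of these 5 contrasts reached 2-fold, and miR-23a over miR-24 was 0.961. Since the miR-24 probe counts the product of both clusters, contrasts against it do not compare partners of a single transcript alone. For the miR-23a cluster, 1.66 miR-27a counts per miR-24 count in control EVs became 0.550 in IL-1β EVs, a 3.02-fold drop (exact conditional 95% interval 2.30 to 3.98). The count of miR-23a per miR-24 went from 1.60 to 0.573, a 2.79-fold drop (2.13 to 3.67). In contrast, miR-27a per miR-23a went from 1.04 to 0.960, a ratio of ratios of 0.924 (0.697 to 1.23).

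For the miR-23b cluster, and with the same miR-24 counts, miR-27b per miR-24 went from 0.590 in control EVs to 0.153 in IL-1β EVs, a 3.87-fold drop (2.55 to 5.92). The other contrasts of that cluster have no value, since miR-23b was below background in both samples. Between the clusters, the ratio of ratios of miR-27a over miR-27b was 1.28 (0.840 to 1.97). This interval includes 1 and reaches to almost 2-fold, so it excludes neither no difference between the miR-27 paralogues nor one of that size.

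The positive controls, synthetic RNAs added at equal amounts to both lanes by the design of the assay, show how far probes can part with no difference in input. The 5 of them above background gave raw ratios of IL-1β over control from 1.04 (75 against 72 counts) to 1.97 (246 against 125). Of their 10 pairs, 0 were called apart, that is at least 2-fold apart with an interval that excludes 1. The widest pair was 1.89-fold apart (1.26 to 2.84), more than counting error alone. On raw counts, each of the 3 contrasts against miR-24 was above 1.89-fold at the low end of its interval. These low ends (2.30 for miR-27a, 2.13 for miR-23a and 2.55 for miR-27b) lie below the 2.84 that the interval of the widest control pair reaches. These controls do not pass through extraction or ligation with the sample, so they leave out that part of the error.

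**Figure D4:**
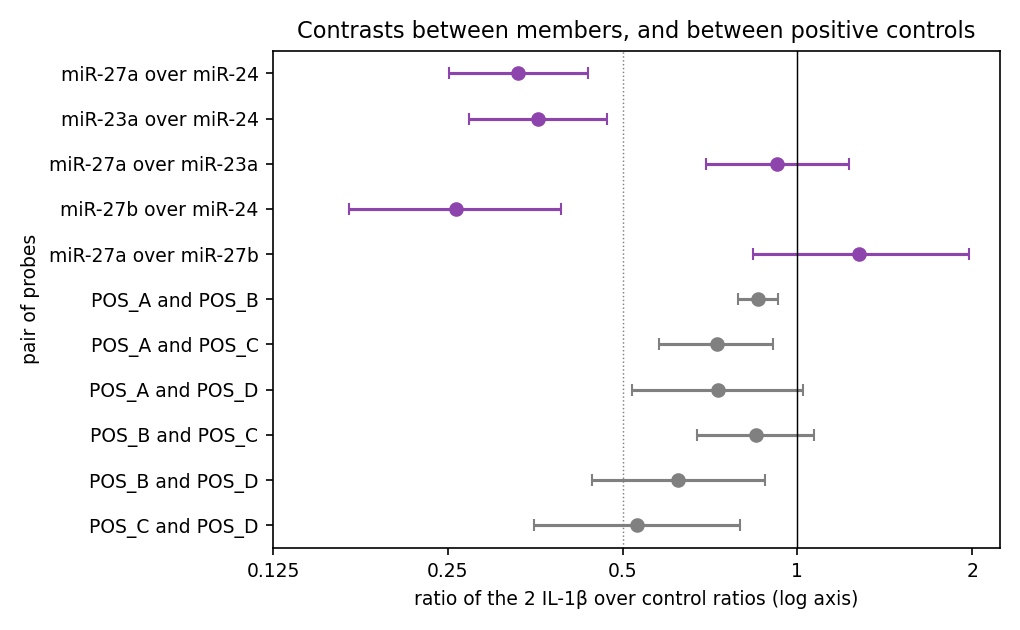
Ratio of the IL-1β over control ratios of 2 probes (log axis, exact conditional 95% intervals) for pairs of members (purple) and for pairs of the 4 strongest positive controls (grey, turned so that each lies below 1). The dotted line marks 2-fold; the 3 contrasts against miR-24 lie wholly to its left, while miR-27a over miR-23a and miR-27a over miR-27b span 1.

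Partners of other clusters were read in the same way, as pairs of miRNA genes on the same chromosome and strand within 10 kb whose probes were above background in both samples. Among the members, 3 of 4 pairs were at least 2-fold apart with an interval that excludes 1. All 3 share the miR-24 probe, so they are not separate observations, and none of them reached 2-fold in the authors' deposited signals. Of the 39 pairs of other clusters, 7 were apart by this rule, or 17.9%, and of the 9591 pairs of any 2 probes, 24.0% were. All 7 hold a let-7 probe, so the 17.9% rests on a single miRNA family. The let-7a, let-7c and let-7f probes each match genes at more than 1 place, as miR-24 does. Pairs that hold them do not compare partners of a single transcript alone. Some of the other pairs hold probes with few counts, such as miR-741-3p with 10 in both samples. For those a 2-fold difference is hard to call. Among the 43 partner pairs, the largest difference was between let-7a and miR-100, 10.8-fold (7.25 to 16.3). Next were let-7c and miR-99a at 4.10-fold (3.08 to 5.46), then miR-24 and miR-27b. The 4th was let-7a and let-7d at 3.67-fold (2.60 to 5.22).

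Other values moved with the samples beside these results. Probes were matched to mouse miRNA genes by number, whatever the letter or arm, and a match is called a mouse counterpart. Of the 71 probes with no mouse miRNA gene of their number in the annotation, 40 were above background in both samples. Their median scaled ratio was 1.30 (range 0.635 to 2.40). The miR-24 ratio of 1.43 lies within that range, and 0 of the 40 had a ratio as low as that of miR-23a (0.510), against 13 of the 99 probes with a mouse counterpart, the 3 members among them. With IL-1β, 15 of the 71 had a count of at least the 40 of miR-27b, 3 reached miR-23a and miR-27a, and 1 reached miR-24. In control EVs, 3 reached miR-27b, 0 reached miR-23a or miR-27a, and 1 reached miR-24. The probes for 4 mRNAs summed to 39568 counts with IL-1β and 1175 in the control. Their part in the results was not tested.

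By the likeness of log2 ratios over the 2 samples, and among 41 probes with a mouse counterpart and at least 50 counts in both, miR-24 was nearest to miR-466c and miR-532-5p. Their ratios were 1.41 (1.25 to 1.59) and 1.41 (1.15 to 1.73), a difference in log2 ratio from miR-24 of 0.02 each. miR-27b was nearest to miR-181a at a log2 ratio of -1.51 and miR-22 at -1.34, against its own -1.44. For miR-23a (-0.97) these were miR-99a (-0.94) and miR-145 (-0.77), and for miR-27a (-1.09) miR-99a and miR-290 (-1.26). With 2 samples, likeness is only that of a single ratio.

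No passenger strand of the clusters was among the probes (0 of 420). The annotation places Mir3074-2 and Mir3074-1 on the minus strand across the 2 miR-24 hairpins, and the miR-3074 probe had 0 counts with IL-1β and 2 in the control, both below background. Outside the miR-23a cluster, the nearest miRNA genes, Mir181c and Mir181d, lie on the minus strand, with Mir181c 29.6 kb away. miR-181c had 5 counts in IL-1β EVs, below background, and 8 in control EVs, above it. The joint probe for miR-181b and miR-181d had 2 and 5 counts, both below background. miR-128, a neuronal miRNA whose seed overlaps that of miR-27, had 1 and 4 counts, also below background in both.

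The authors' deposited table of normalized signals put the members in another order. In the authors' deposited table, miR-23a had signals of 2381 with IL-1β and 2160 in the control, 4th and 5th highest of the signals listed for each sample. There the signals of miR-27b were 696 and 828, above or close to those of miR-27a at 557 and 899, and those of miR-24 were 290 and 253. The authors' deposited table also gives miR-23b, at 85.4 and 75.6, a probe with 2 and 1 raw counts.

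In the authors' deposited table the ratios of IL-1β over control were 0.620 for miR-27a, 0.840 for miR-27b, 1.10 for miR-23a, 1.13 for miR-23b and 1.15 for miR-24. None of the 5 was 2-fold from 1, where 8.40% of the 119 probes with both signals were at least 2-fold lower and 9.24% at least 2-fold higher. The median of those 119 deposited ratios was 0.883. The direction was that of the raw counts for miR-27a, miR-27b and miR-24, and opposite for miR-23a. Ratios of ratios from the authors' deposited signals were 0.541 for miR-27a over miR-24, 0.733 for miR-27b over miR-24 and 0.961 for miR-23a over miR-24. In the deposited signals it was therefore miR-27a that stood lowest, with miR-27a over miR-23a at 0.563, where the raw counts had these partners together.

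The deposited signal per raw count differed widely between the members. From the authors' deposited table it was 15.9 with IL-1β and 6.43 in the control for miR-23a, and 17.4 and 6.68 for miR-27b. It was 3.87 and 2.58 for miR-27a, and 1.11 and 1.20 for miR-24. The median over the listed probes was 4.19 with IL-1β and 2.35 in the control. A common factor per sample therefore does not link the deposited signals of these probes with their raw counts, and how the authors normalized them is not stated in the labels or headers.

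**Figure D5:**
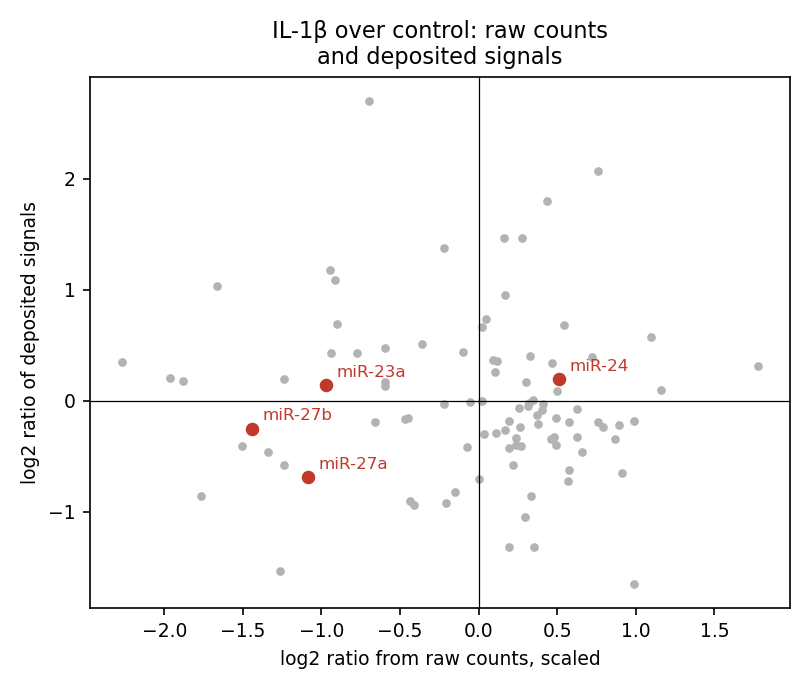
Log2 ratio of IL-1β EVs over control EVs from scaled raw counts (horizontal) and from the authors' deposited signals (vertical) for probes with both, members in red and others in grey. miR-27a and miR-27b are below 0 on both axes, miR-24 is above 0 on both, and miR-23a is below 0 from raw counts only.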

How the data were processed

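Extracellular vesicle RNA of 1 IL-1β sample and 1 control sample was analysed. The deposited raw files hold reporter counts for a rat miRNA code set with no normalization, per the file headers, which list 1139 of 1150 fields of view counted for IL-1β and 1121 for the control. A second deposited table lists normalized signals of 124 miRNA probes and a ratio of them. The labels and headers do not state that normalization, and the listed ratio is 0 for 4 probes with both signals, so ratios were taken from the signals. The signals equal those of the deposited value table in 124 of 124 rows, within 0.005.

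Counts were used without background subtraction and scaled as the report states, with Python 3.11.15 and SciPy 1.17.1. The factor given as a suffix of the probe names was dropped and not applied. Intervals (95%) are exact: Poisson for a count, Clopper-Pearson for shares and for ratios between samples, and conditional for a ratio of ratios. A probe above background in 1 sample got a bound, set by the threshold in the other sample. No p-value is given. The interval scripts were tested on simulated data. The named probes were the 5 members, a list of their genomic and seed neighbours, the 2 probes nearest in ratio to each member, and the 4 widest partner pairs. Lists and members were chosen with earlier results of these data known. Alternatives were other scalings, background subtraction, thresholds, fold minimums, a 50 kb distance and the deposited signals.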

Additional observations from a re-analysis of the deposited data

How the results depend on the processing

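Of 82 values under alternatives, 60 stayed within the interval of the main value or within 1.5 times the main count. These 60 include the count of members called higher, which was 0 in the main run and in all 13 alternatives. With the deposited signals, every member ratio and every contrast listed below left the interval of its main value. With scaling on positive controls, log2 ratios were -1.67 for miR-23a, -1.79 for miR-27a, -2.14 for miR-27b and -0.19 for miR-24, whose direction thus turned. Scaled on probes lacking a mouse counterpart they were -1.32 for miR-23a, -1.44 for miR-27a and 0.16 for miR-24, and with the median ratio 0.24 for miR-24. With the deposited signals they were 0.14 for miR-23a, -0.69 for miR-27a, -0.25 for miR-27b and 0.20 for miR-24. Log2 ratios of ratios from those signals were -0.89 for miR-27a over miR-24, -0.057 for miR-23a over miR-24, -0.83 for miR-27a over miR-23a, -0.45 for miR-27b over miR-24 and -0.44 for miR-27a over miR-27b. Members called lower rose from 2 to 3 in 6 alternatives, each adding miR-23a: scaling on positive controls, on the median ratio or on probes lacking a mouse counterpart, no scaling, the mean + 2 SD subtracted, and a fold minimum of 1.5. They fell to 1 with scaling on total counts or on the 50 highest probes, and to 0 with a fold minimum of 4 or with the deposited signals. Partner pairs apart rose from 10 of 43 to 17 of 43 with the mean + 2 SD of the negative controls subtracted. As shares, 23.3% of pairs were apart, against 36.0% (9 of 25, by fold alone) with the deposited signals and 15.4% (12 of 78) within 50 kb. Among these the cause was not tested. Subtraction of background left each contrast between members within its interval. No paired analysis was possible because each group is 1 sample. Ratios and contrasts of miR-23b have no value on raw counts. Probes with few counts, such as miR-23b, cannot show a change at this depth.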
